A study of Drosophila melanogaster with 6 samples.

Results

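The genes described here encode the larval serum proteins and the fat body proteins of Drosophila melanogaster: Lsp1alpha, Lsp1beta, Lsp1gamma, Lsp2, Fbp1 and Fbp2. They were taken by name from the deposited tables, in which they occupy 6 of 15904 loci, and Fbp2 shares its locus with the neighbouring gene CG42847. Transcript levels were measured in the eye disc, a larval epithelium from which the adult eye develops, in 3 groups of 2 libraries each. The RNAi-labelled group expresses an RNAi construct directed at Hsromega, a long non-coding RNA (genotype w1118; sev-GAL4/UAS-GFP with hsromegaRNAi), and the overexpression-labelled group carries EP3037, an insertion through which GAL4 raises Hsromega (w1118; sev-GAL4/UAS-GFP with EP3037). The control has the genotype w1118; sev-GAL4/UAS-GFP, so that the w1118 background, the driver and the GFP transgene are shared by every group. The sev-GAL4 driver acts in only some cells of the developing retina, whereas each library was made from whole discs, 30 pairs to a library, of wandering larvae late in the third instar.

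Larval serum proteins are hexamerins, large storage proteins that the fat body makes and secretes into the haemolymph during the last larval instar and that serve as a reserve of amino acids for metamorphosis. The fat body is the insect counterpart of liver and adipose tissue and is not part of the eye disc. Late in the last instar, under the steroid hormone ecdysone, fat body cells take serum proteins back up from the haemolymph, and Fbp1 encodes a receptor in that uptake.

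Values are fragment counts normalised for transcript length and library size (FPKM), 1 value per group, since the authors pooled both libraries. No standard deviation can be given for them, and their sequencing depth is unknown. The labels do not state that a group's libraries were grown apart, and the deposited p-values then measure a spread that may be technical only. All 12 eye disc markers on the list used here reached FPKM of 1 in each group. The targeted gene Hsromega stood at 204 FPKM in RNAi-labelled discs, 376 FPKM in overexpression-labelled discs and 202 FPKM in control discs. It was not called in either comparison of the authors' deposited table (q = 0.997 for RNAi and q = 0.758 for overexpression), so it does not check the labels.

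The genes lie apart on 3 chromosomes. In dm6 coordinates of the Ensembl annotation, Lsp1alpha lies on chromosome X at 12490291 to 12492982, Lsp1beta on 2L at 898500 to 901316 and Lsp1gamma on 3L at 66430 to 68995, each on the plus strand and each with 2 exons. These genes encode the alpha, beta and gamma subunits of larval serum protein 1. They are related in sequence, so how fragments were divided among them is uncertain. Lsp2, which encodes a separate hexamerin, lies on 3L at 12129393 to 12131869 on the plus strand with a single exon, and an antisense RNA gene, asRNA:CR11538, overlaps 2096 nt of it on the other strand. The sources used here do not say whether strand was used in counting, so the Lsp2 value may hold antisense fragments. Fbp1 lies on 3L at 14094589 to 14098053 on the minus strand, also with a single exon. Fbp2, whose product is related to alcohol dehydrogenase, lies on 2L at 9426784 to 9427917 on the plus strand and overlaps CG42847 by 48 nt. The value of that locus belongs to both genes together, and they cannot be told apart in it.

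The level of every one of the 6 loci was highest in RNAi-labelled discs, intermediate in overexpression-labelled discs and lowest in control discs. Among the subunits of larval serum protein 1, Lsp1alpha stood at 20.3 FPKM in RNAi-labelled discs, 11.4 FPKM in overexpression-labelled discs and 6.01 FPKM in control discs. Lsp1beta stood at 29.0 FPKM in RNAi-labelled discs, 18.9 FPKM in overexpression-labelled discs and 11.9 FPKM in control discs. Lsp1gamma stood at 24.6 FPKM in RNAi-labelled discs, 17.5 FPKM in overexpression-labelled discs and 7.15 FPKM in control discs. Lsp1beta was thus the most abundant of the subunits in each group, and Lsp1alpha the least.

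The other hexamerin, Lsp2, stood at 36.2 FPKM in RNAi-labelled discs, 16.8 FPKM in overexpression-labelled discs and 6.29 FPKM in control discs. The receptor gene Fbp1 stood at 23.4 FPKM in RNAi-labelled discs, 10.3 FPKM in overexpression-labelled discs and 3.71 FPKM in control discs. The locus of Fbp2 and CG42847 stood at 35.3 FPKM in RNAi-labelled discs, 12.3 FPKM in overexpression-labelled discs and 4.18 FPKM in control discs. Both Fbp loci were below all 4 Lsp genes in control discs. The Fbp2 locus was second to Lsp2 alone in RNAi-labelled discs.

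**Figure D1:**
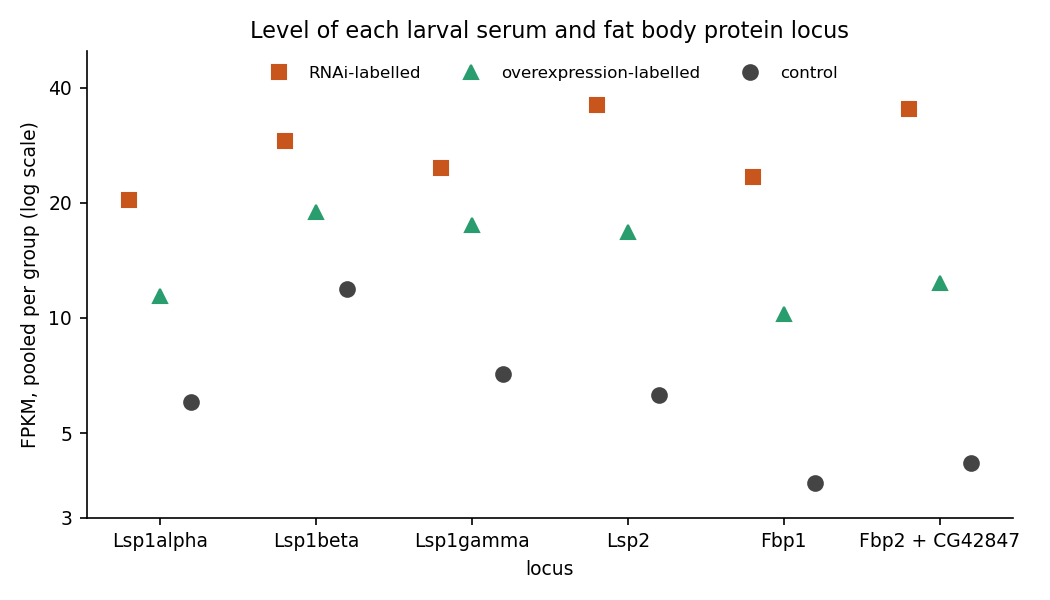
FPKM of each locus on a log axis, pooled by the authors over the 2 libraries of a group, with a point for RNAi-labelled, overexpression-labelled and control discs from left to right. Control values lie between 3.71 and 11.9 FPKM, and in each locus the RNAi-labelled point is the highest.

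Placed among all 15904 loci, these genes stood above the middle in each group, and furthest above it in RNAi-labelled discs. All loci are counted here, of which 9529 reached FPKM of 1 in control discs. Lsp2 exceeded 87.8% of loci in RNAi-labelled discs, 77.7% in overexpression-labelled discs and 59.1% in control discs. Fbp1, the least abundant of the 6 in control discs, exceeded 82.6% of loci in RNAi-labelled discs, 69.8% in overexpression-labelled discs and 53.2% in control discs. Since no error belongs to a single pooled value, it cannot be said which neighbours in the order of levels differ beyond their spread.

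In RNAi-labelled discs, 4 of the 6 loci rose over control at q of 0.05 or less in the authors' Cuffdiff test, and none fell. The receptor gene Fbp1 rose 6.31-fold, Lsp2 rose 5.75-fold, Lsp1gamma rose 3.44-fold and the locus of Fbp2 rose 8.43-fold. In this comparison 0.212% of 11314 tested loci were raised and 0.61% were lowered at that threshold. The median log2 fold of the 6 loci, on FPKM + 0.1, was 2.14, against -0.04 over the 9891 loci with FPKM of 1 or more in RNAi-labelled or control discs. Of all tested loci, 46.6% were higher in RNAi-labelled than in control discs. In whole discs, more cells that hold a transcript and more of it in each cell cannot be told apart.

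The error of each fold was taken as the log2 fold divided by the deposited test statistic and is called the implied SE. For Fbp1 the log2 fold was 2.66 with an implied SE of 0.85, at q = 0.00144 in the authors' deposited table. Its Cuffdiff p of 5e-05 is the smallest there and is shared with other loci, among them Obp99b, Sgs5, Sgs7 and Sgs8. For Lsp2 the log2 fold was 2.52 with an implied SE of 0.83 (q = 0.00264 in the authors' deposited table). The fold of the Fbp2 locus was the largest of the 6 and also the least precise, with a log2 fold of 3.08, an implied SE of 1.20 and q = 0.0254 in the authors' deposited table. Lsp1gamma passed narrowly, with a log2 fold of 1.78 and an implied SE of 0.86 (q = 0.0487 in the authors' deposited table).

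The remaining subunit genes did not pass the threshold in RNAi-labelled discs. Lsp1alpha had a log2 fold of 1.76 with an implied SE of 0.86 and q = 0.0738 in the authors' deposited table, a log2 fold close to the 1.78 of Lsp1gamma. Lsp1beta, the most abundant in control discs, had the smallest log2 fold, 1.29, with an implied SE of 0.76 and q = 0.146 in the authors' deposited table. At an unadjusted p of 0.05 or less all 6 loci were higher in RNAi-labelled discs, where 0.884% of tested loci were higher and 3.61% lower by that rule. With Benjamini-Hochberg adjustment recomputed over the 11314 tests of the authors' deposited table, Fbp1 alone passed, at 0.0404, and Lsp2 was at 0.0754. With p taken from the deposited statistic and then adjusted in the same way, 0 of the 6 passed.

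In overexpression-labelled discs, no locus passed the authors' q of 0.05, and each of the 6 values was above that of control discs, as were 51.8% of tested loci. Raised calls made up 0.132% of the 11372 tested loci of this comparison, and lowered calls 1.06%. The median log2 fold of the 6 loci on FPKM + 0.1 was 1.34, against 0.03 over the 9977 loci with FPKM of 1 or more in either group. By an unadjusted p of 0.05 or less, Fbp1, Lsp2 and Lsp1gamma, 3 of the 6, were higher, where 0.58% of tested loci were higher and 5.58% lower.

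Among single loci in overexpression-labelled discs, Fbp1 was 2.77-fold above control, at a log2 fold of 1.47 with an implied SE of 0.83 (q = 0.114 in the authors' deposited table). Lsp2 was 2.67-fold above control, at a log2 fold of 1.41 with an implied SE of 0.83 (q = 0.148 in the authors' deposited table). Lsp1gamma was at a log2 fold of 1.30 with an implied SE of 0.83 (q = 0.164 in the authors' deposited table). These folds lie between 1 and 2 implied SE from 0. The Fbp2 locus had the largest log2 fold of the 6 here, 1.56, with an implied SE of 1.25 and q = 0.433 in the authors' deposited table. Lsp1alpha was at 0.93 with an implied SE of 0.86 (q = 0.519 in the authors' deposited table). Lsp1beta was at 0.67 with an implied SE of 0.77 (q = 0.651 in the authors' deposited table), a fold smaller than its error.

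**Figure D2:**
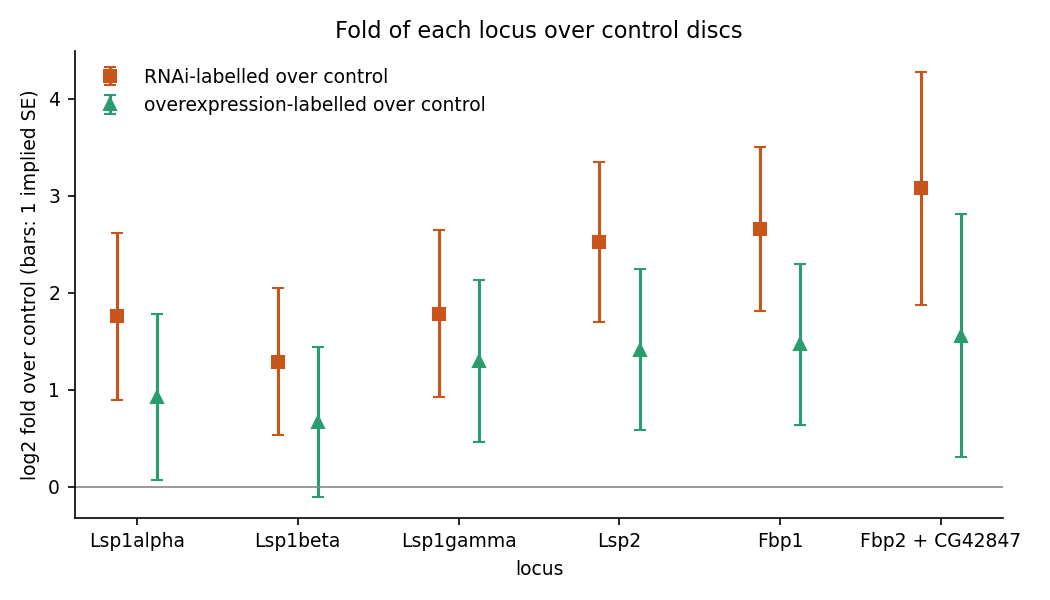
Log2 fold of each locus over control, RNAi-labelled discs to the left of overexpression-labelled discs, with bars of 1 implied SE. RNAi-labelled folds run between 1.29 and 3.08 and overexpression-labelled folds between 0.67 and 1.56; both sets share the same control libraries.

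Both comparisons use the same control libraries, so a low control value raises the fold in both. Set directly beside each other, without the control, the RNAi-labelled level exceeded the overexpression-labelled level at each of the 6 loci. The RNAi-labelled over overexpression-labelled ratio was 2.86-fold for the Fbp2 locus, 2.28-fold for Fbp1 and 2.16-fold for Lsp2. It was 1.77-fold for Lsp1alpha, 1.54-fold for Lsp1beta and 1.40-fold for Lsp1gamma. The median of these ratios was 0.97 on the log2 scale, against -0.03 over expressed loci. The deposited tables hold no test of this pair of groups, so the difference between the RNAi-labelled and overexpression-labelled levels was not tested.

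The summed level of the 6 loci was 168.7 FPKM in RNAi-labelled discs, 87.2 FPKM in overexpression-labelled discs and 39.2 FPKM in control discs. Its make-up differed among the groups. The 3 genes of larval serum protein 1 made up 43.8% of the sum in RNAi-labelled discs, 54.9% in overexpression-labelled discs and 63.8% in control discs. The Fbp loci made up 34.8% in RNAi-labelled discs, 25.9% in overexpression-labelled discs and 20.1% in control discs. Lsp1beta alone held 17.2% of the sum in RNAi-labelled discs, 21.6% in overexpression-labelled discs and 30.3% in control discs. The levels were also more even in the groups with the higher sums: the highest locus was 1.78 times the lowest in RNAi-labelled discs, 1.84 times in overexpression-labelled discs and 3.20 times in control discs. These shares come from pooled values and were not tested.

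**Figure D3:**
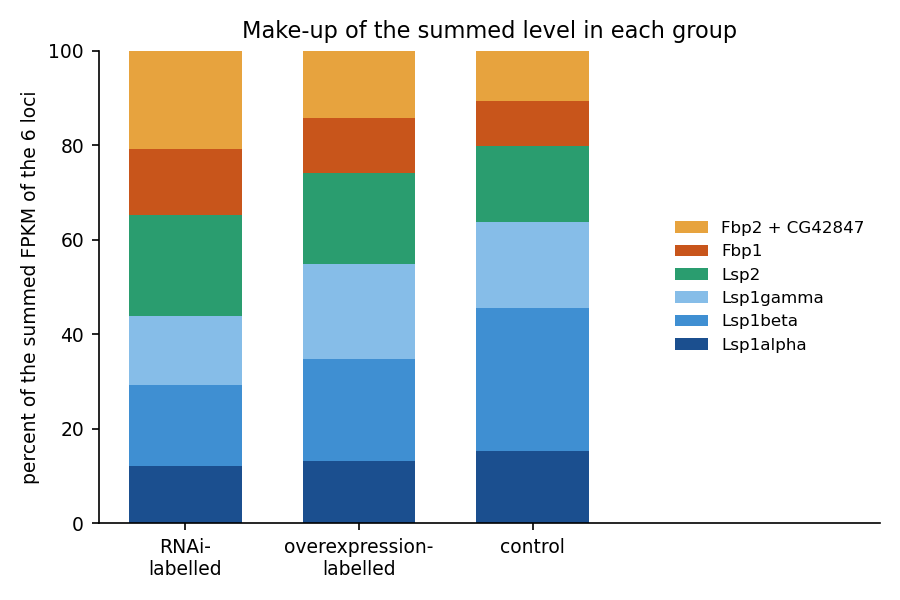
Share of each locus in the summed FPKM of the 6 loci, in percent, for RNAi-labelled, overexpression-labelled and control discs from left to right. The blue part, the genes of larval serum protein 1, is 43.8%, 54.9% and 63.8% in that order.

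Against the folds of all loci, the 6 stood in the upper tail. Ranked by RNAi-labelled over control fold among the 11174 tested loci above 0 in both groups, the Fbp2 locus was at place 48, Fbp1 at 71 and Lsp2 at 88. Lsp1gamma was at place 203, Lsp1alpha at 211 and Lsp1beta at 379. In overexpression-labelled discs, over 11244 such loci, the Fbp2 locus was at place 264, Fbp1 at 303 and Lsp2 at 332, while Lsp1beta was at 1533. Among the 2561 tested loci whose control level lay within the range of these genes, 3.71 to 11.9 FPKM, the median log2 fold was -0.12 in RNAi-labelled discs and -0.03 in overexpression-labelled discs. A fold at or above that of Lsp1beta, the lowest of the 6, was found at 1.25% of those loci in RNAi-labelled discs and at 7.77% in overexpression-labelled discs. These loci include the 6 themselves. These percentages describe the tables and are no test, since the genes were chosen with their values known.

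**Figure D4:**
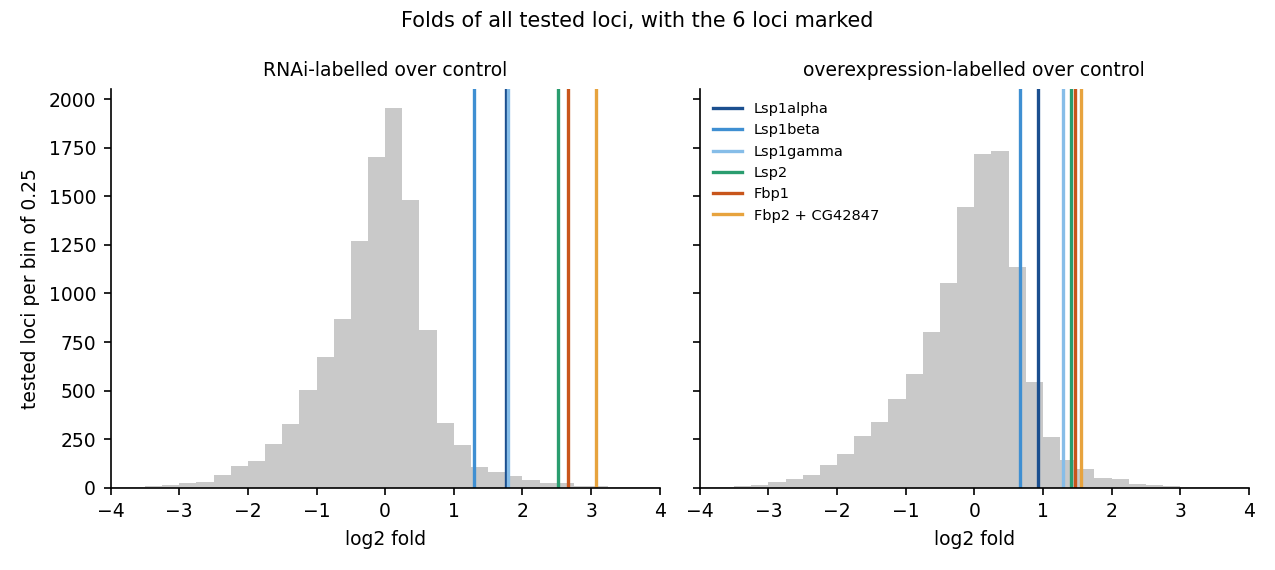
Number of tested loci per bin of 0.25 in log2 fold over control (grey), RNAi-labelled discs at left and overexpression-labelled discs at right, with a coloured line at each of the 6 loci. All 6 lines lie right of 0, and those of Lsp1alpha and Lsp1gamma nearly coincide at left; loci beyond 4 in size or at 0 in a group are not drawn.

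The folds were also set against transcript length. The longest transcripts of the 6 genes span 1074 nt for Fbp2 to 3465 nt for Fbp1. The running median of the fold at the length of each gene lay between -0.24 and 0.21 on the log2 scale in RNAi-labelled discs and between -0.28 and 0.32 in overexpression-labelled discs. With that trend subtracted, log2 folds in RNAi-labelled discs were 2.90 for Fbp1, 2.86 for the Fbp2 locus and 1.42 for Lsp1beta. In overexpression-labelled discs they were 1.75 for Fbp1, 1.24 for the Fbp2 locus and 0.79 for Lsp1beta.

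Other genes active in fat body had folds of both signs. Of 20 loci on a list of fat body genes without these 6, 1 of 18 tested rose and none fell in RNAi-labelled discs, and none of 18 passed in overexpression-labelled discs, where 2 had an unadjusted p of 0.05 or less. Their median log2 fold on FPKM + 0.1 was -0.19 in RNAi-labelled discs and 0.09 in overexpression-labelled discs, over 17 expressed loci in each. Of these folds, 6 lay above 0 for RNAi and 9 for overexpression. The listed loci below the filter, Apoltp, Jhe and CCHa2, were higher than control in both comparisons. Without the filter the medians were -0.02 for RNAi and 0.24 for overexpression. Some listed genes stood high in control discs, such as Tsf1 at 190 FPKM. How far the discs themselves express the listed genes was not tested. The gene called for RNAi was Obp99b, of the odorant-binding protein family. It stood at 75.6 FPKM in RNAi-labelled discs, 29.9 FPKM in overexpression-labelled discs and 11.1 FPKM in control discs. Its q in the authors' deposited table was 0.00144 for RNAi and 0.226 for overexpression. The triglyceride lipase gene bmm stood at 10.2 FPKM in RNAi-labelled discs, 6.06 FPKM in overexpression-labelled discs and 3.26 FPKM in control discs; for RNAi its q in the authors' deposited table was 0.0738. CCHa2, which encodes a peptide hormone, was below FPKM of 1 throughout, at 0.669 in RNAi-labelled discs, 0.628 in overexpression-labelled discs and 0.167 in control discs. FASN1, the fatty acid synthase gene, listed as CG3523, stood lower in the treated discs, at 7.35 FPKM in RNAi-labelled discs, 5.19 FPKM in overexpression-labelled discs and 15.8 FPKM in control discs, and was not called (q = 0.499 for RNAi and q = 0.203 for overexpression in the authors' deposited table).

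The listed relatives of these proteins, chosen from outside the set described here, were not called. How near they are in sequence to these proteins was not tested. Prophenoloxidases, the enzymes of melanin formation, belong to the same protein superfamily as hexamerins, and alcohol dehydrogenase is the relative of Fbp2. None of the 4 loci with PPO1, PPO2, PPO3 and Adh with Adhr passed in either comparison of the authors' deposited table, and none had an unadjusted p of 0.05 or less. Their median log2 fold was -0.27 in RNAi-labelled discs and -0.54 in overexpression-labelled discs. PPO1 stood at 18.4 FPKM in RNAi-labelled discs, 11.6 FPKM in overexpression-labelled discs and 17.9 FPKM in control discs. PPO2 stood at 12.5 FPKM in RNAi-labelled discs, 9.36 FPKM in overexpression-labelled discs and 18.6 FPKM in control discs. The locus of PPO3 and l(2)k09913 stood at 54.4 FPKM in RNAi-labelled discs, 64.6 FPKM in overexpression-labelled discs and 87.9 FPKM in control discs. The locus of Adh and Adhr stood at 18.8 FPKM in RNAi-labelled discs, 13.7 FPKM in overexpression-labelled discs and 14.4 FPKM in control discs.

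Ecdysone acts on the fat body through a cascade of nuclear receptors and other transcription factors. The list examined held 21 genes, mostly of that kind, together with the juvenile hormone receptor genes Met and gce and the ecdysone-related genes Cyp18a1, E23 and Eip71CD, which encode no transcription factor. In RNAi-labelled discs none passed and 4 had an unadjusted p of 0.05 or less, with a median log2 fold of -1.16 over 20 expressed loci. In overexpression-labelled discs 1 of 21 fell, Blimp-1, a transcriptional repressor gene, while 7 had an unadjusted p of 0.05 or less, all lower, and the median was -0.94. The Blimp-1 call was lost with Benjamini-Hochberg adjustment recomputed over the table and with adjusted p taken from the deposited statistic. Blimp-1 stood at 12.5 FPKM in RNAi-labelled discs, 5.53 FPKM in overexpression-labelled discs and 35.1 FPKM in control discs, and its q for overexpression in the authors' deposited table was 0.00740. The broad gene br, a primary ecdysone response factor, stood at 93.6 FPKM in RNAi-labelled discs, 64.7 FPKM in overexpression-labelled discs and 384.4 FPKM in control discs, at q = 0.139 for RNAi and q = 0.0529 for overexpression in the authors' deposited table. The locus of Hr46, an orphan nuclear receptor gene, and CG12912 stood at 8.02 FPKM in RNAi-labelled discs, 4.48 FPKM in overexpression-labelled discs and 20.1 FPKM in control discs. Eip93F, a late ecdysone response gene, stood at 0.495 FPKM in RNAi-labelled discs, 0.366 FPKM in overexpression-labelled discs and 1.48 FPKM in control discs. Many of these genes are also expressed in the discs themselves, and after subtraction of the length trend their medians were -0.30 in RNAi-labelled discs and -0.25 in overexpression-labelled discs.

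Markers of other larval tissues moved beside these genes in part. Of the salivary gland list, 3 of 5 tested loci rose in RNAi-labelled discs and none of 5 in overexpression-labelled discs, where 0 had an unadjusted p of 0.05 or less. The 3 were Sgs5, Sgs7 and Sgs8. Their calls held with Benjamini-Hochberg adjustment recomputed over the table and with adjusted p taken from the deposited statistic. The summed level of the list was 3171 FPKM in RNAi-labelled discs, 79.5 FPKM in overexpression-labelled discs and 46.4 FPKM in control discs. Sgs7 alone stood at 2405 FPKM in RNAi-labelled discs, 52.6 FPKM in overexpression-labelled discs and 23.8 FPKM in control discs, and ng4 was listed at 0 in each group. Of the gut list, none of 4 tested loci passed in RNAi-labelled discs, by either q or unadjusted p, and 3 of 7 rose in overexpression-labelled discs, where the sum was 157.1 FPKM, against 7.17 FPKM in RNAi-labelled discs and 7.98 FPKM in control discs. Those 3 gut calls were lost with Benjamini-Hochberg adjustment recomputed over the table but held with adjusted p taken from the deposited statistic. The haemocyte list had no call in either comparison, with 1 of 8 loci at an unadjusted p of 0.05 or less for RNAi and 0 of 7 for overexpression, and its sum was 43.8 FPKM in RNAi-labelled discs, 42.6 FPKM in overexpression-labelled discs and 40.3 FPKM in control discs. The muscle list had no call either, with 1 of 8 loci at an unadjusted p of 0.05 or less for RNAi and 0 of 8 for overexpression, and had sums of 1231 FPKM in RNAi-labelled discs, 2199 FPKM in overexpression-labelled discs and 1997 FPKM in control discs.

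Salivary gland and larval serum protein transcripts thus both had their highest sums in RNAi-labelled discs, as did the haemocyte list by a small margin. The gut and muscle sums were highest in overexpression-labelled discs. The sum of the other fat body genes was lowest in RNAi-labelled discs. It was 442.0 FPKM there, 480.1 FPKM in overexpression-labelled discs and 479.1 FPKM in control discs. Of the brain neuron list, 1 of 6 tested loci fell in RNAi-labelled discs and 1 of 5 in overexpression-labelled discs, which was brp in both. Of the eye disc list, none of 12 loci passed in RNAi-labelled discs, where 2 had an unadjusted p of 0.05 or less, and 2, lz and gl, fell in overexpression-labelled discs, where 6 had an unadjusted p of 0.05 or less. The calls of brp, lz and gl were lost with Benjamini-Hochberg adjustment recomputed over each table and with adjusted p taken from the deposited statistic. The sum of the eye disc list was 234.1 FPKM in RNAi-labelled discs, 218.8 FPKM in overexpression-labelled discs and 399.1 FPKM in control discs. The median log2 fold of the eye disc list was -1.09 in RNAi-labelled discs and -1.34 in overexpression-labelled discs. With the length trend subtracted, that median was -0.40 for RNAi and -0.70 for overexpression. The part of tissue carried along with the discs in the levels of the 6 loci was not tested.

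**Figure D5:**
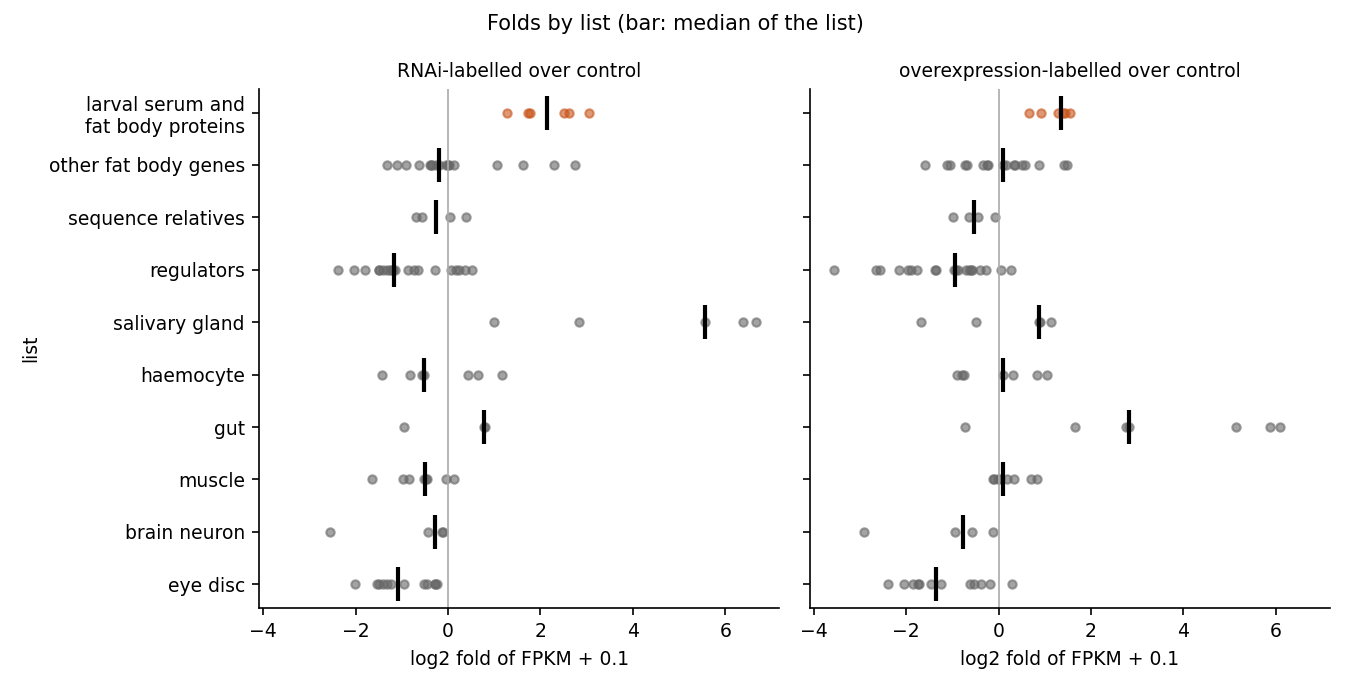
Log2 fold over control on FPKM + 0.1 of each expressed locus (points) and the median (bar) for the 6 loci and for 9 other lists, RNAi-labelled discs at left and overexpression-labelled discs at right. The 6 loci have medians of 2.14 and 1.34, and the other fat body genes lie on both sides of 0.

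The loci whose levels over the 3 groups followed the mean pattern of these genes most closely were sought among 7240 loci with FPKM of 5 or more in some group and above 0 in all. Likeness was the Euclidean distance between log2(FPKM + 0.1) profiles centred on their mean. The closest were the locus of let-7, let-7-C, mir-100 and mir-125 at a distance of 0.13, snoRNA:Psi28S-3305a at 0.14, CG42717 at 0.16, Rfabg at 0.19, the locus of kuz and mir-2489 at 0.21, and snoRNA:Psi28S-1232 at 0.25. The distances of the 6 genes themselves from their mean ran between 0.24 for Lsp2 and 0.63 for the Fbp2 locus. Rfabg encodes the apolipophorin that carries lipid in the haemolymph and was on the list of fat body genes. It stood at 5.11 FPKM in RNAi-labelled discs, 2.86 FPKM in overexpression-labelled discs and 0.961 FPKM in control discs, at q = 0.535 for RNAi and q = 0.866 for overexpression in the authors' deposited table. None of these 6 loci was called in either comparison, and 0 had an unadjusted p of 0.05 or less.

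The genes on either side of each locus gave no call. Of 12 flanking genes, all had a row in the tables, and 6 were tested for RNAi and 5 for overexpression. None passed the authors' q of 0.05; at an unadjusted p of 0.05 or less 2 did for RNAi, Cpr11A and CG8100, with 0 for overexpression. Of the tested flanking genes, 5 of 6 were higher than control for RNAi and 4 of 5 for overexpression. Cpr11A, a cuticle protein gene 843 nt before Lsp1alpha, stood at 4.88 FPKM in RNAi-labelled discs, 2.36 FPKM in overexpression-labelled discs and 1.76 FPKM in control discs, with a log2 fold of 1.48 for RNAi. CR45348, a non-coding RNA gene 450 nt before Lsp1beta, stood at 0.708 FPKM in RNAi-labelled discs, 0.169 FPKM in overexpression-labelled discs and 0.177 FPKM in control discs, with a log2 fold of 2.00 for RNAi at q = 0.663 in the authors' deposited table, against 1.29 for Lsp1beta. CG8100, next to Fbp1 at 8168 nt, stood at 2.07 FPKM in RNAi-labelled discs, 1.29 FPKM in overexpression-labelled discs and 0.737 FPKM in control discs, with a log2 fold of 1.49 for RNAi. DEF8, listed as CG11534, begins 277 nt after Lsp2 and stood at 10.5 FPKM in RNAi-labelled discs, 11.0 FPKM in overexpression-labelled discs and 8.29 FPKM in control discs. FucTB, which overlaps CG42847 by 72 nt on the other strand, stood at 2.48 FPKM in RNAi-labelled discs, 2.61 FPKM in overexpression-labelled discs and 2.18 FPKM in control discs. The log2 fold of DEF8 was 0.34 for RNAi and 0.41 for overexpression, and that of FucTB was 0.19 for RNAi and 0.26 for overexpression.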

How the data were processed

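Cuffdiff 2.1.1, Cufflinks, Bowtie, TopHat and the dm6 build are named in the submitters' processing notes; annotation, settings and other versions are not given in the sources read. Per the labels, stranded ribosome-depleted total RNA was sequenced from both ends at 50 nt over 2 lanes. The FPKM values are those the authors deposited, 1 per group, with both libraries pooled. The test statistic, a score that divides the log2 ratio by its error, and the p-value and q-value are also as deposited by the authors in their Cuffdiff table, and a last deposited column marks p of 0.05 or less. Values called are at the authors' q of 0.05 or less. The sign of the overexpression table was turned to overexpression over control.

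Folds were computed from FPKM, without a pseudocount for single genes. List medians used log2(FPKM + 0.1), which understates changes of low genes, over loci with FPKM of 1 or more in a group of the comparison. The length trend was a running median over 250 loci on each side in order of the longest Ensembl transcript, matched for 98.6% of loci. For these loci the deposited p is smaller than a normal test of the implied SE gives. Adjustment and trend were tested on simulated data. A limma or edgeR fit was not run, since the tables hold no values per library.

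The genes and lists were chosen with earlier results of these data known. Besides the 6 genes, the text names from each of 9 lists up to 4 loci with the smallest q, the 6 loci most alike in pattern and the genes flanking each locus, some as counts only. Of 97 listed symbols 1 was not matched to a locus. It was Pepck of the fat body list, which had no row by name and an ambiguous synonym, so it was left out. FucTB was added because it overlaps the Fbp2 locus. Computation used Python 3.11.15 with pandas 2.3.3, numpy 2.4.6, scipy 1.17.1 and matplotlib 3.10.9.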

Additional observations from a re-analysis of the deposited data

How the results depend on the processing

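No paired analysis was possible because the deposited columns pool both libraries of a group, and for the same reason no library could be left out; the replicate block and the fits without each replicate were not run. For RNAi, 4 of the 6 loci were called, against 1 with Benjamini-Hochberg recomputed over the table and 0 with p from the deposited statistic, adjusted likewise. For overexpression, 0 were called by these 3 rules and 3 at an unadjusted p of 0.05 or less. Among other fat body genes 1 was called for RNAi, against 0 with adjusted p from the statistic and 2 at unadjusted deposited p. For overexpression 0 were called, against 2 at unadjusted deposited p. At each of the 6 loci the authors' q lies below the recomputed value, and the set of tests behind it is unknown. Across 108 alternatives, single folds over control and RNAi over overexpression ratios of the 6 loci kept their sign, and each fold over control moved by less than its implied SE. The medians of the 6 kept their sign under each setting run. Rescaling FPKM to an equal sum over all loci, chosen after the data were examined, shifts the median of all expressed loci by -0.44 for RNAi and -0.49 for overexpression, and the lowest fold, of Lsp1beta for overexpression, becomes 0.17. An equal sum over protein-coding loci shifts them by -0.19 and -0.24. Medians of other lists that changed sign were, with the length trend subtracted, haemocyte (0.56) and brain neuron (0.20) for RNAi and other fat body genes (-0.028) for overexpression, and, at FPKM of 5 or more, gut for RNAi (-0.96) and haemocyte for overexpression (-0.24). The cause was not tested. Depth is unknown, so what it limits cannot be given.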
